A study of Rattus norvegicus with 20 samples.

Results

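Whole blood of omeprazole-treated rats was compared with that of rats given STW5, with both STW5 doses pooled. The comparison used every array titled as whole blood with omeprazole at 30 mg/kg (4 arrays) and every one titled with STW5 at 0.5 or 2 ml/kg (8 arrays, 4 per dose), so 12 of the 20 whole blood arrays of the series. All animals were Wistar rats with 1 array per animal. Reflux esophagitis had been induced by surgery in both treated groups and in an untreated esophagitis group (4 arrays), and a sham-operated group (4 arrays) had no esophagitis. Omeprazole or STW5 was given for 7 days before the operation and for 10 days after it. The deposited titles and the deposited value table disagree on which arrays had which STW5 dose, which does not affect a contrast with both doses pooled at equal weight. Whole blood arrays of sham and untreated rats shared slide 1, all STW5 arrays were on slide 2, and slide 3 held those of omeprazole, so treatment and slide cannot be told apart in any value below.

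Omeprazole blocks the gastric proton pump, the enzyme that moves acid into the stomach lumen, and in liver cells it is known to switch on target genes of the aryl hydrocarbon receptor, such as Cyp1a1. STW5 is a herbal preparation that combines extracts of several medicinal plants and is used for functional disorders of the gut. Whole blood RNA comes from reticulocytes, platelets and the white cells, among them neutrophils, monocytes and lymphocytes. In such bulk RNA, fewer cells of a type and less RNA per cell cannot be told apart.

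The level of a probe is log2 of its background-corrected intensity relative to the 75th percentile of its array, so a level of 0 is at that percentile. Levels are compared between arrays for 1 probe and never between probes. That percentile was 96.0 to 225 intensity units on the omeprazole arrays and 71.3 to 308 on the STW5 arrays, and 43.1 to 52.7% of probes against 44.2 to 57.4% were well above background. Correlations between arrays over the genes tested were 0.954 to 0.987 within omeprazole, 0.899 to 0.983 within STW5 and 0.908 to 0.975 between them. The label of whole blood was borne out by its main cell types on all 12 arrays. The reticulocyte genes Alas2, Hba-a1 and Hbb lay at mean levels of 11.07, 10.79 and 10.50 with omeprazole and 11.13, 10.85 and 10.57 with STW5. The platelet gene Pf4 (8.65 and 9.09), the monocyte gene Lyz2 (9.17 and 9.02), the neutrophil gene S100a9 (6.42 and 5.97), the T cell gene Cd3d (4.93 and 4.76) and the B cell gene Cd79b (3.53 and 2.78) were well above background on every one of them.

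Most genes that differed were lower with omeprazole than with STW5. Among those with a known function were the histone gene Hist1h2bq, Txnip, which restrains thioredoxin, the MHC class I genes RT1-T24-4 and RT1-CE4, the trypsin genes Prss3 and Try10, the translation factor gene Eif3h and Glul, which encodes glutamine synthetase. Higher genes differed less and included Tspan32, Hnrnpa2b1, Idh3b and the dendritic cell regulator Batf3. Of 15239 genes tested, 747 passed a Benjamini-Hochberg adjusted p below 0.05 in limma (4.9%), 713 of them lower (4.68%) and 34 higher (0.223%). At an unadjusted p below 0.05, 9.56% of genes were lower and 4.36% higher, and 50.5% of all differences were below 0 and 49.5% above. The median difference over all genes was -0.0044, while the median of the lower calls was -1.68 and that of the higher calls 0.82. A difference of at least 1 on the log2 scale was seen in 634 of the lower and 9 of the higher calls, and 152 of the lower calls were not well above background on any omeprazole array. The omeprazole arrays lay entirely below the STW5 arrays for 530 of the 713 lower calls, where 3.85% of all genes did so, and entirely above them for 18 of the 34 higher calls, where 0.873% of all genes did. For 429 of the lower calls and 7 of the higher calls the omeprazole arrays were also outside the range of all 16 other arrays. The share of all genes in that position was not counted. Formal gene symbols were held by 139 of the lower and 28 of the higher calls; the other 574 and 6 carry only a locus, transcript or probe name. Of genes without a formal symbol 13.1% were lower (574 of 4397), of those whose symbol marks a pseudogene 33.3% (8 of 24) and of the other symbols 1.21% (131 of 10818), a grouping that was made after the values had been seen. Leaving out 1 array gave 544 to 853 calls in all. The count of higher calls ranged from 7 without omeprazole array 4 and 9 without omeprazole array 2 to 78 without array 3 of the 2 ml/kg title. It was also moved by more than 1.5 times without omeprazole array 3 (21), 0.5 ml/kg arrays 4 (20) and 3 (54) or 2 ml/kg array 1 (52).

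**Figure D1:**
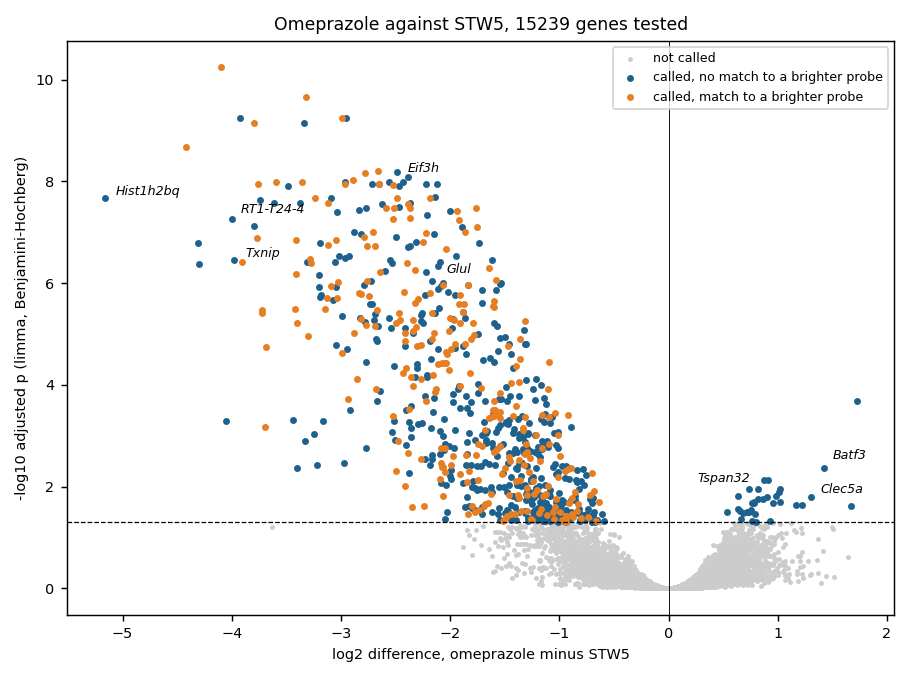
Log2 difference between omeprazole and STW5 (x axis) against -log10 of the adjusted p from limma (y axis) for the 15239 genes tested; grey points did not pass the threshold (dashed line), blue and orange points did, and orange marks a probe with an imperfect match to a brighter probe. The 713 lower calls extend to a difference of -5.17 (Hist1h2bq), and none of the 34 higher calls has such a match. Of all tested genes whose symbol marks no pseudogene, 0.656% have one, and of those without a formal symbol 18.1%.

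Probe sequence differed between genes that were lower and the rest, and 2 features stood out. The first was an imperfect match, of 40 to 59 identical bases of the 60 in a probe, to a brighter probe of another gene. Such matches were held by 937 of the 17236 probes tested. Over all tested probes 4.37% were lower and 0.209% higher. Of the matched probes 276 were lower with omeprazole (29.5%) and 0 higher in limma, while of the 16299 probes without a match 478 were lower (2.93%) and 36 higher (0.221%). By the number of identical bases the share lower was 25.1% at 40 to 44, 31.3% at 45 to 49, 33.3% at 50 to 54 and 16.1% at 55 to 59. The following stretches of 30 bases show 4 such probes, each above the brighter probe of a ribosomal protein gene that it resembles, with mismatches in capitals; they were chosen as the largest lower differences whose brighter partner has a symbol.
FQ226734: actActCaatgtcaaataaagttacagaaC
Rpl31: actGctGaatgtcaaataaagttacagaaT
A_64_P092698: agacaaAtaAttgtgtatgagttaataaGA
Rps27a: agacaaGtaGttgtgtatgagttaataaAG
A_64_P072352: tccagttCtaagcCgaCtttgttatgaagG
Rpl36a: tccagttTtaagcTgaTtttgttatgaagA
A_64_P012116: gaaatgaacCAAacTtctgcatgtgactaC
Rpl38: gaaatgaacAGGacCtctgcatgtgactaT

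In each of these pairs the dimmer probe passed the test and its partner did not. The FQ226734 probe ranged from -2.41 to -1.51 on the omeprazole arrays and from 0.81 to 2.38 on the STW5 arrays, a difference of -3.72 ± 0.43 (standard error, as in all differences below). Rpl31, with 3 other letters in the 30 shown, lay at 5.69 to 7.45 and at 5.99 to 7.80, a difference of -0.25 ± 0.49 (adjusted p in limma 0.92). The probe paired with Rps27a differed by -3.69 ± 0.64 and its partner, a probe of Rps27a, by -0.92 ± 0.61. For the Rpl36a pair the differences were -3.69 ± 0.48 and -0.13 ± 0.54, and for the Rpl38 pair -3.14 ± 0.35 and -0.14 ± 0.38. Other, brighter probes stood for Rps27a and Rpl38 in the gene counts, with differences of -0.32 ± 0.62 and -0.05 ± 0.38. Over all 937 matched probes, the median of probe minus brighter partner was -1.27, -1.25, -1.25 and -1.25 on the omeprazole arrays. On the STW5 arrays it ranged from -1.05 to -1.01 with a median of -1.03, on the sham arrays from -1.09 to -1.03 and on the untreated arrays from -1.05 to -0.98. The omeprazole arrays were thus below all 16 others in this value, with no overlap. Its part in the calls was not tested beyond leaving out the matched probes, which gave 403 lower and 27 higher calls over 14392 genes.

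The second feature was a low share of G and C. Among probes without a match, 44 of 169 with at most 30% G and C were lower (26.0%), against 1.24 to 6.56% in the other ranges of G and C. The first 30 bases of the probes of 2 lower and 2 higher genes, with G and C in capitals, show the contrast; over the 60 bases of the probe the share is 18.3%, 21.7%, 55% and 55%.
Txnip: tttGtGtatCtttttGtatGattaaaaaCt
Hist1h2bq: aCttttaaGtatttGtGatGtGtGGatata
Hnrnpa2b1: tGGaGattCtCGaGGtGGCGGtGGCaattt
Idh3b: tGaaGaaGGtGatCaaGGttGGCaaGGtCC

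Relative to all tested probes, the median of the 169 probes poor in G and C was -1.81, -1.40, -1.36 and -1.13 on the omeprazole arrays. It ranged from -1.33 to -0.28 with a median of -0.69 on the STW5 arrays and from -1.11 to 0.20 on slide 1, so the omeprazole range overlapped that of STW5. The probes of the 34 higher calls had 41.7 to 55% G and C (median 53.3%), and those of all genes 18.3 to 90.0% (median 45%). Among the lower calls the median was 45% too. With probes that matched no probe of another gene at all and had over 30 to 60% G and C, an alternative added after the data had been seen, 297 lower and 22 higher calls remained over 13557 genes, 315 of these 319 shared with the full set. Matches were searched among the probes of the array only.

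**Figure D2:**
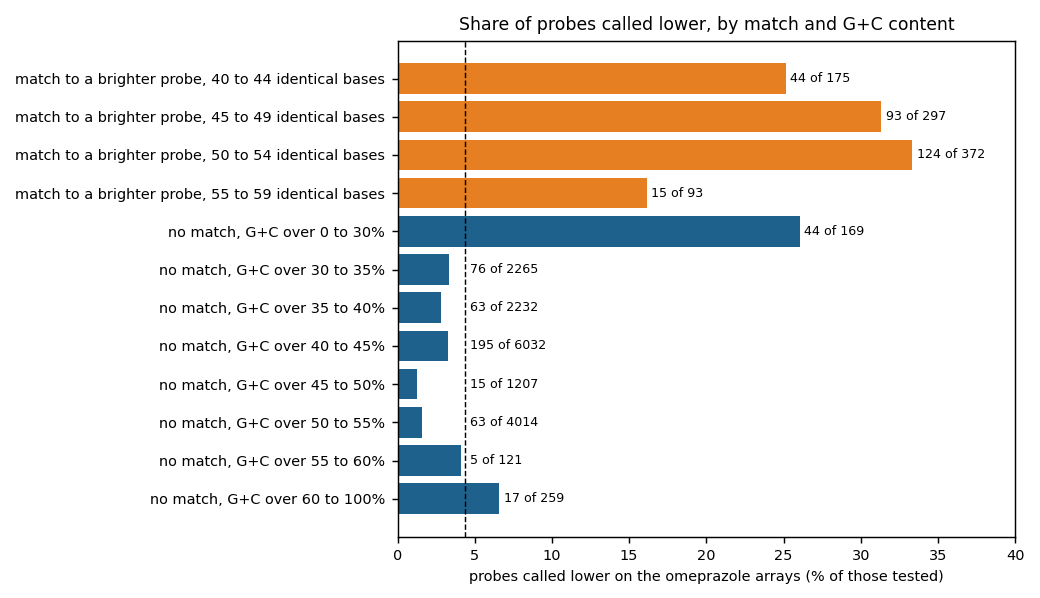
Share of tested probes called lower with omeprazole (x axis, percent) for probes with a match to a brighter probe by the number of identical bases (orange) and for probes without one by G and C content (blue), with counts beside the bars; the dashed line is the share of all tested probes. Every orange bar and that of at most 30% G and C lie between 16.1 and 33.3%, and the other blue bars between 1.24 and 6.56%.

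**Figure D3:**
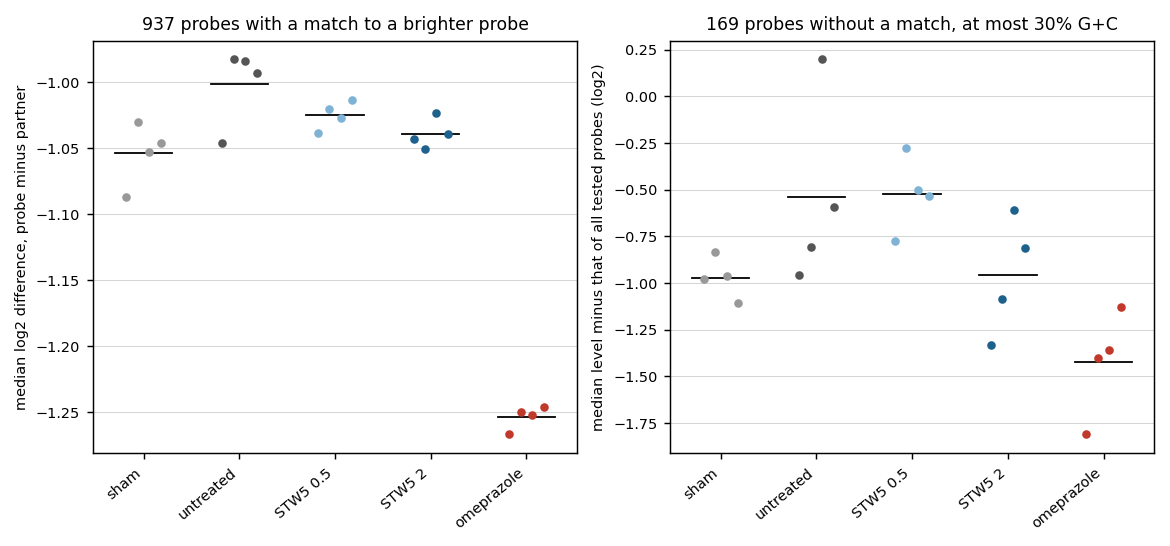
Median per array (points; lines are group means of 4 arrays) of a matched probe minus its brighter partner over 937 probes (left) and of 169 probes poor in G and C relative to all probes (right), both on the log2 scale. On the left the omeprazole arrays lie at -1.27 to -1.25, below all 16 others; on the right they span -1.81 to -1.13 and overlap STW5.

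Hist1h2bq, Txnip and RT1-T24-4 had some of the largest differences among genes with a known function and no match to a brighter probe. The first 2 were dim with omeprazole, and their differences were smaller with a background correction that adds an offset. Of the 27 lower genes called and named here, 9 have probes with at most 30% G and C, and their share is given where they appear. Hist1h2bq, which encodes a histone H2B of nucleosomes (probe at chr17:48459105-48459164, build rn4), lay at -4.62, -3.90, -5.41 and -3.35 with omeprazole and from -0.06 to 1.88 with STW5 (median 1.01). The 2 groups did not overlap, with a difference of -5.17 ± 0.39 (adjusted p in limma 2.12e-08), and the probe was well above background on 1 of the 4 omeprazole arrays, so most of its omeprazole levels lie near the floor of the assay. With normexp background correction the difference was -2.29 (adjusted p in limma 3.49e-06), and RT1-T24-4 at -3.23 was then the largest of the named lower genes. That correction was run with an offset of 50 intensity units, which by construction shrinks log2 differences of dim probes. Its smaller values and lost calls, here and below, therefore do not show the effect of background subtraction alone. A second probe of Hist1h2bq differed by -1.09 ± 0.38 and did not pass (adjusted p in limma 0.14). Txnip encodes the thioredoxin-interacting protein, which binds thioredoxin and limits glucose uptake. Its levels (probe at chr2:191360631-191360690) were -4.03, -4.61, -3.81 and -5.05 with omeprazole and -2.19 to 0.23 with STW5 (median -0.11), a difference of -3.98 ± 0.38 (adjusted p in limma 3.56e-07). All omeprazole arrays were below all STW5 arrays for Txnip, and 1 of the 4 was well above background. With normexp correction the difference was -1.47 (adjusted p in limma 7.86e-05).

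RT1-T24-4 and RT1-CE4 are class I genes of the rat MHC, whose products present peptides to cytotoxic T cells. For RT1-T24-4 (chr20:2837688-2837748, 30.0% G and C) levels were -0.38, -1.19, -0.81 and -0.95 with omeprazole and 2.22 to 3.92 with STW5 (median 3.36), and for RT1-CE4 (chr20:3537162-3537348) they were -0.81, -0.58, 0.33 and -0.25 against 1.10 to 1.89 (median 1.60). Neither gene overlapped between the groups, and both probes were well above background on all 12 arrays. The differences were -4.0 ± 0.33 and -1.86 ± 0.22 (adjusted p in limma 5.43e-08 and 4.81e-06). The other 28 of the 30 MHC class I and antigen presentation genes tested did not pass: RT1-A1, a classical class I gene, differed by 0.07 ± 0.23, B2m, the shared light chain, by -0.62 ± 0.25 and the peptide transporter gene Tap1 by 1.0 ± 0.38. Class I genes are near-identical in parts, so the probes may share targets; 5 of the 30 members have a match to a brighter probe. The list's median was 0.15, with 21 members above 0.

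Several named lower genes have a part in translation or are named after one that does. Eif3h, a subunit of the initiation factor that brings the small ribosomal subunit to mRNA, lay at 1.08, 0.75, 0.77 and 0.56 with omeprazole and at 2.92 to 3.95 with STW5 (median 3.25). Its probe (chr7:88069668-88069727, rn4) differed by -2.49 ± 0.17 (adjusted p in limma 6.62e-09), and slide 1 spanned 3.05 to 3.55. The other 2 tested probes of Eif3h differed by 0.20 ± 0.34 and -0.70 ± 0.20 and did not pass. Of 78 cytosolic ribosomal protein genes 3 were lower and 0 higher in limma (median -0.03). Among all genes 4.68% were lower, and among those whose symbol marks no pseudogene 1.21%. The 3 were Rplp1 (-1.46 ± 0.30), Rpsa (-1.28 ± 0.23) and Rpl7a (-1.10 ± 0.15). Rplp1 and Rpl7a have matches to brighter probes, and a second probe of Rpsa differed by 0.11 ± 0.28. Rps4y2, named as a copy of ribosomal protein S4 with a probe on chromosome 4 (chr4:185978154-185978213, rn4), was at 2.10 to 2.37 with omeprazole and 3.66 to 4.83 with STW5, a difference of -1.95 ± 0.18, and its second probe differed by 0.27 ± 0.47. The pseudogenes Rps2-ps7 (-2.37 ± 0.41), Rpl27a-ps14 (-1.96 ± 0.35) and Phb1-ps1 (-3.05 ± 0.39), the last derived from a gene of a mitochondrial scaffold protein, were lower without overlap. Pseudogene probes resemble their parent genes, so the source of this signal cannot be assigned to one copy. The probes that stood for Rps2 and Rpl27a differed by -0.39 ± 0.31 and -0.06 ± 0.30 and did not pass. Nor did that of Rps4x, another S4 gene, at 0.21 ± 0.25.

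Named lower genes also included metabolic enzymes. Glul, whose enzyme makes glutamine from glutamate and ammonia (probe with 23.3% G and C), lay at -1.46, -2.16, -2.28 and -1.70 with omeprazole and at -0.16 to 0.72 with STW5 (median 0.19), a difference of -2.17 ± 0.22 (adjusted p in limma 8.89e-07). Rpia, an isomerase of the pentose phosphate pathway, was at -0.27 to -0.03 against 0.56 to 1.60, a difference of -1.22 ± 0.19, with no overlap; it was 1 of 32 glycolysis and pentose phosphate genes (median 0.04). Ndufb4l1, named after a subunit of respiratory complex I, differed by -2.83 ± 0.33 with omeprazole at -2.67 to -1.85. Sdhc, a membrane subunit of succinate dehydrogenase (25.0% G and C), overlapped between the groups and differed by -0.74 ± 0.19 (adjusted p in limma 0.027), 1 of 73 oxidative phosphorylation genes with a median of 0.15. Its call was lost without omeprazole array 1, 2 or 3, 0.5 ml/kg array 3 or 2 ml/kg array 4. Cpox, an enzyme of haem synthesis (23.3% G and C), was not well above background on any omeprazole array and on 4 of 8 STW5 arrays, and was at least 1.48-fold lower. Such a bound sets the STW5 mean against the faintest signal called well above background on each omeprazole array, or the probe's own signal where higher.

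Among the other lower genes named for their size, Npy4r, a receptor for pancreatic polypeptide, was at -1.71 to -1.27 with omeprazole and -0.50 to 1.12 with STW5, a difference of -1.81 ± 0.29. Rassf3, of the Ras association domain family (26.7% G and C), differed by -1.75 ± 0.26 with levels of -2.60 to -1.66 against -0.90 to -0.04, but its second probe differed by 0.23 ± 0.24. Jkampl, named after a membrane protein that binds the kinase JNK, differed by -1.62 ± 0.38 and was well above background on 3 of 4 omeprazole arrays. Its call was lost without omeprazole array 2 or 4 (adjusted p in limma 0.094 and 0.061) and against the arrays titled 0.5 ml/kg.

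Prss3 and Try10 had the largest bounds. They encode trypsins, digestive proteases of the pancreas, with probes on chromosome 4 (chr4:69015353-69015412 and chr4:69053166-69053225, rn4). Prss3 was at -4.57, -5.61, -3.91 and -5.30 with omeprazole, where it was never well above background, and at -2.94 to 1.05 with STW5 (median -0.35), where it was so on 7 of 8 arrays. It was at least 8.36-fold lower with omeprazole (adjusted p in limma 0.00052), and Try10 at least 6.67-fold (0.0044; 0.19 with normexp correction), while a second Try10 probe differed by -0.91 ± 0.66. Without overlap the range of STW5 was still wide, with an SD of 1.63 for Prss3 and 1.47 for Try10 (n = 8). The other 7 of 9 pancreatic acinar genes tested did not pass; 5 of the 9 differed by more than 0, up to 1.01 for Ctrc, and the median was 0.03. The score of that list (a level's deviation from the 20-array mean of its gene, averaged over the list) was -1.09 to -0.42 with omeprazole and -1.31 to 0.91 with STW5. The remaining bounds were those of Helz, an RNA helicase (at least 4.00-fold), and Nudt9, an ADP-ribose pyrophosphatase (at least 3.45-fold), with 21.7% and 25.0% G and C in their probes. With normexp correction 6 of the 27 named lower calls were lost: Try10, Jkampl, Cpox, H2bc1, Irak4 and Sdhc.

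**Figure D4:**
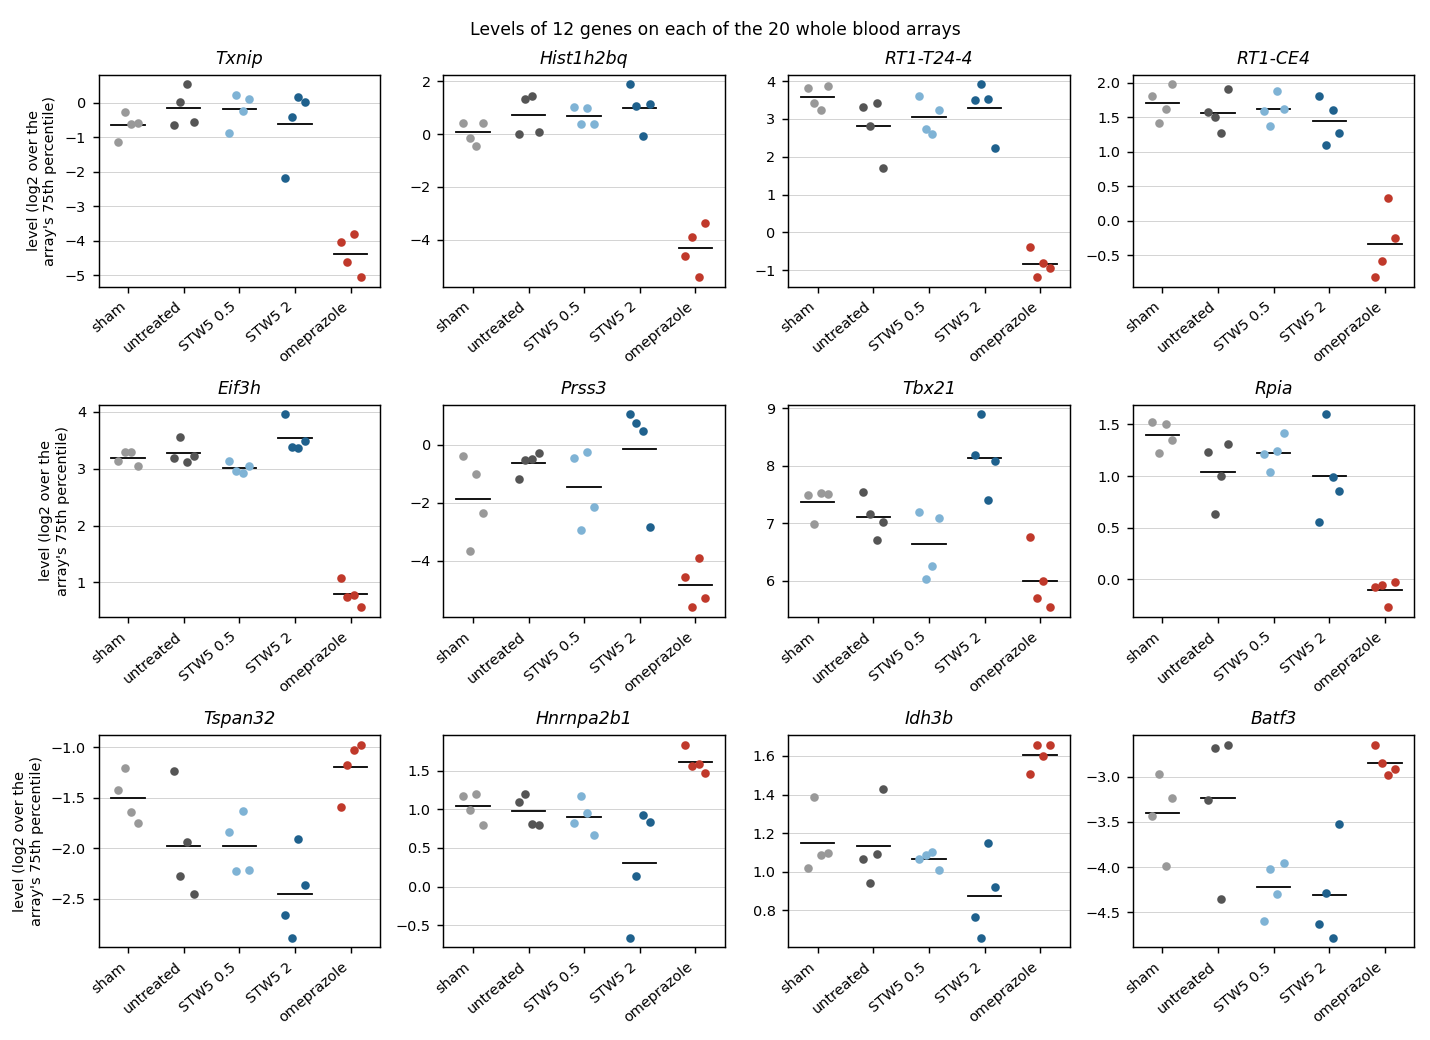
Level (y axis, log2 relative to the 75th percentile of the array) of 12 genes on each of 20 arrays; points are arrays, lines are group means of 4, and STW5 is split by the dose in the titles (ml/kg). Omeprazole points lie below all STW5 points in Txnip, Hist1h2bq, RT1-T24-4, RT1-CE4, Eif3h, Prss3 and Rpia, above them in Tspan32, Hnrnpa2b1, Idh3b and Batf3, and overlap them in Tbx21.

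Higher calls were smaller than the lower ones and their probes had no match to a brighter probe. Such a match was rare among all tested genes whose symbol marks no pseudogene (0.656%, 71 of 10818). Among tested genes without a formal symbol, which include 6 of the higher calls, 18.1% had one (796 of 4397). Tspan32, a tetraspanin of blood cells, lay at -1.59, -1.18, -1.03 and -0.97 with omeprazole and at -2.88 to -1.63 with STW5 (median -2.22), a difference of 1.02 ± 0.24 (adjusted p in limma 0.011). Hnrnpa2b1, an RNA-binding protein that acts in splicing and RNA transport, was at 1.84, 1.56, 1.59 and 1.47 against -0.66 to 1.17 (median 0.83), a difference of 1.01 ± 0.24 (adjusted p in limma 0.013). Idh3b, a subunit of an isocitrate dehydrogenase of the citric acid cycle, was at 1.51, 1.65, 1.60 and 1.66 against 0.66 to 1.15 (median 1.04), a difference of 0.64 ± 0.15 (adjusted p in limma 0.015). In Hnrnpa2b1 and Idh3b the omeprazole arrays also lay above all arrays of slide 1, which reached 1.20 and 1.43, while Tspan32 reached -1.21 there and overlapped.

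Of the 18 higher calls without overlap, 11 have a symbol and were well above background on at least 3 omeprazole and 6 STW5 arrays, and the other 8 of these differed by 0.54 to 0.86. They were Abcf3 (0.86 ± 0.21), an ATP-binding protein without a transport domain, Retreg2 (0.79 ± 0.21), of a family that shapes the endoplasmic reticulum, the endosomal protein gene Wdr91 (0.78 ± 0.20), Nisch (0.76 ± 0.19), whose product binds an integrin, the DNA helicase gene Recql5 (0.76 ± 0.22), the mitochondrial selenoprotein gene Selenoo (0.76 ± 0.20), Tmem259 (0.72 ± 0.19), a membrane protein of the endoplasmic reticulum, and Abhd17a (0.54 ± 0.14), an enzyme that removes palmitate from proteins. A second probe of Retreg2 differed by 0.19 ± 0.29. All 11 lost the call against the arrays titled 0.5 ml/kg alone, with adjusted p in limma from 0.13 for Abhd17a to 0.55 for Selenoo, and all 11 kept it against those titled 2 ml/kg. Leaving out omeprazole array 1, 2, 3 or 4 ended 5, 9, 8 and 10 of the 11 calls, and leaving out 1 STW5 array ended 1 to 5. With normexp correction 5 of the 11 lost the call (Tspan32, Abcf3, Retreg2, Selenoo and Tmem259), and the differences were 0.37 to 0.78. Among the 3 largest, Tspan32 lost its call without omeprazole array 3 or 4 (adjusted p in limma 0.054 and 0.060), Hnrnpa2b1 without array 1 (0.053) and Abcf3 without array 2, 3 or 4 (0.061, 0.083 and 0.076). Idh3b lost it without array 2, 3 or 4 (0.071, 0.053 and 0.063).

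Batf3, Clec5a, Tbx21 and Irak4 were called members of the lists of blood cells and of immune receptors. Batf3, a transcription factor that type 1 conventional dendritic cells need, was at -2.64, -2.84, -2.97 and -2.92 with omeprazole and at -4.78 to -3.52 with STW5 (median -4.30), a difference of 1.42 ± 0.30 (adjusted p in limma 0.0044) without overlap. It was well above background on 3 of 4 omeprazole and 2 of 8 STW5 arrays, and with normexp background correction the difference was 0.30 and did not pass. Clec5a, a receptor of myeloid cells, overlapped and differed by 1.31 ± 0.32 (adjusted p in limma 0.016). It was well above background on 3 of 4 omeprazole and 4 of 8 STW5 arrays. Its call was lost without omeprazole array 2 or 4 (0.097 and 0.11), and against the arrays titled 0.5 ml/kg the difference was 0.52. In all, 5 of 29 alternatives ended the call of Clec5a, and its lowest difference was 0.27. Tbx21, the transcription factor T-bet of cytotoxic and type 1 helper cells, lay at 6.76, 5.70, 6.0 and 5.54 with omeprazole and 6.03 to 8.89 with STW5 (median 7.30). Its difference was -1.39 ± 0.29 (adjusted p in limma 0.0045), but -0.64 and not past the threshold against the arrays titled 0.5 ml/kg. Array 2 of that title had the lowest STW5 level of Tbx21 (6.03) but the highest STW5 score of the NK and cytotoxic list (1.36). Irak4, a kinase that acts downstream of Toll-like receptors, was not well above background on any omeprazole array and on only 4 of 8 STW5 arrays. It was at least 1.21-fold lower.

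Across 38 gene lists, 13 of them cell type markers, 919 genes were tested. Of these 15 were lower and 2 higher, 1.85% in all, where 1.54% of all genes with a symbol were called (167 of 10842). In 24 lists no member passed, and the score of every list overlapped between omeprazole and STW5. NK and cytotoxic cell genes had the lowest median, -0.59, with 15 of 20 below 0 and 1 called (Tbx21). The granzyme genes Gzma (-1.54 ± 0.76), Gzmb (-1.49 ± 0.72) and Gzmk (-1.05 ± 0.54) and the perforin gene Prf1 (-0.57 ± 0.50) did not pass, and the NK receptor gene Ncr1 differed by 0.19 ± 0.35. The score of this list was -0.42, -0.49, 0.28 and -0.52 on the omeprazole arrays and -0.46 to 1.36 on the STW5 arrays (median 0.19), so omeprazole arrays 2 and 4 lay below the STW5 range and arrays 1 and 3 within it. Platelet genes had a median of -0.36 with 19 of 22 below 0 and 0 called; 2 of the 22 were below an unadjusted p of 0.05. Pf4, a chemokine of platelet granules, differed by -0.44 ± 0.33, and Clec1b, a platelet lectin receptor, by -1.06 ± 0.40. The platelet score was -0.45 to 0.00 with omeprazole and -0.57 to 1.26 with STW5.

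Mature neutrophil genes had the highest median, 0.45, with 22 of 27 above 0, 0 called and 1 below an unadjusted p of 0.05. The calprotectin genes S100a8 and S100a9 differed by 0.50 ± 0.71 and 0.45 ± 0.70, Cd177, a neutrophil surface protein, by 1.11 ± 0.95 and the receptor gene Cxcr2 by 0.14 ± 0.39. Their score was -0.29 to 0.90 with omeprazole, -1.01 to 0.69 with STW5 and -0.59 to 1.52 in untreated rats. Dendritic cell and MHC class II genes had a median of 0.37 with 11 of 16 above 0 (Batf3 called), B cell genes 0.31 with 17 of 22 above 0 and T cell genes 0.20 with 17 of 22 above 0, and no B or T cell gene passed. Erythroid genes had a median of 0.26 with 26 of 37 above 0 and Cpox called. Monocyte genes had a median of 0.20 and 0 of 18 called; Cx3cr1, the fractalkine receptor of patrolling monocytes and NK cells, differed by -1.27 ± 0.45 (adjusted p in limma 0.14). The remaining cell lists held 7 to 11 tested genes each: neutrophil granule genes (median 0.15), eosinophils, basophils and mast cells (-0.16), plasma cells (-0.14) and squamous epithelium (-0.06) had no call.

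Genes tied to the drug's known targets did not pass. Of the target genes of the aryl hydrocarbon receptor, Cyp1a1 was not well above background on any of the 20 arrays and Cyp1b1 on 1, so neither was tested. Ahrr, the receptor's repressor, lay at -1.82, -2.41, -4.92 and -3.93 with omeprazole and at -5.22 to -1.80 with STW5, a difference of 0.72 ± 0.69, and Nqo1, a quinone reductase, at 0.45, -0.22, -0.28 and -0.28 against -1.22 to 0.35, a difference of 0.24 ± 0.30. Hmox1, which degrades haem, differed by -0.19 ± 0.33. The list of 17 tested genes of that receptor and drug metabolism had a median of -0.04; Por, the electron donor of cytochrome P450 enzymes, was nearest to the threshold at 0.65 ± 0.20 (adjusted p in limma 0.079). Proton pump genes had a median of 0.22 with 15 of 21 above 0 and 0 called, also at an unadjusted p below 0.05. Atp4a, the catalytic subunit of the gastric pump, differed by -0.13 ± 0.29, and Atp6v0d1, Atp6v0c and Atp6v0b of the lysosomal pump by 0.57 ± 0.33, 0.48 ± 0.28 and 0.45 ± 0.25. Lysosomal genes had a median of 0.33 with 21 of 27 above 0 and 0 called (1 at an unadjusted p below 0.05).

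Lists of inflammation and stress held few calls. Interferon-stimulated genes had a median of 0.25 with 24 of 35 above 0, inflammatory cytokines and NF-kB targets 0.06 with 14 of 25, immediate early genes 0.01 with 15 of 29, eicosanoid genes 0.11 with 13 of 23 and chemokine receptors and adhesion genes 0.12 with 22 of 32, and 0 were called in any of these in limma (1, 0, 2, 1 and 5 at an unadjusted p below 0.05). Toll-like receptor and inflammasome genes had a median of 0.26 with Clec5a and Irak4 called in opposite directions among 27. In the thioredoxin and peroxiredoxin list Txnip was the 1 call among 21: its relatives Arrdc3 and Arrdc2 differed by 0.56 ± 0.31 and 0.47 ± 0.26, and Txn1, the thioredoxin it binds, by 0.08 ± 0.43. Txnip was also the 1 call among 22 glucocorticoid-induced genes (median 0.09). NRF2 and glutathione genes (median 0.19, 36 tested), iron genes (0.07, 18 tested), cell cycle genes (-0.04, 30 tested), chaperones (-0.08, 38 tested), circadian clock genes (0.03, 16 tested), Bcl2 family and caspases (0.06, 30 tested) and fatty acid oxidation genes (0.30, 21 of 26 above 0) held 0 calls in limma, and 1, 1, 2, 2, 1, 2 and 4 members at an unadjusted p below 0.05. Among 29 histone genes Hist1h2bq and H2bc1, a testis-type H2B gene with a match to a brighter probe (at least 1.41-fold lower), were lower while the median was 0.08. The call of H2bc1 was lost without omeprazole array 2, 3 or 4, 0.5 ml/kg array 1, 3 or 4 or 2 ml/kg array 1 or 2.

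**Figure D5:**
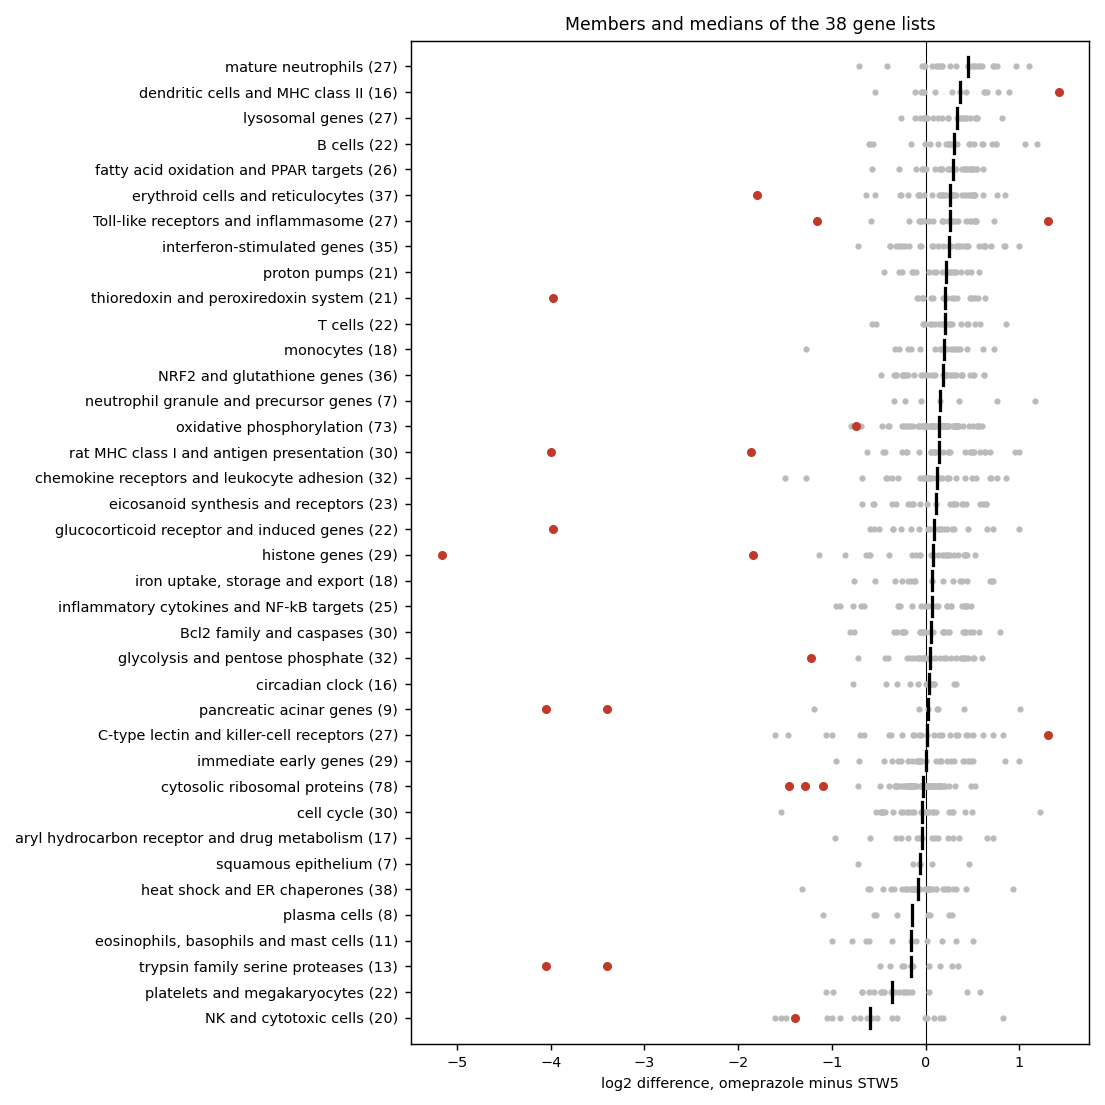
Log2 difference between omeprazole and STW5 (x axis) for the members of 38 gene lists (y axis, number tested in brackets), with called members in red, the others in grey and the list median as a black bar. Medians span -0.59 for NK and cytotoxic cells to 0.45 for mature neutrophils, and the calls below -3 belong to lists whose medians lie between -0.16 and 0.21.

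Both treatments were also set against the untreated rats, whose arrays these comparisons share. With omeprazole 637 genes were called (4.18%), 584 lower (3.83%) and 53 higher (0.348%), and with STW5 limma called 0 (1454 at an unadjusted p below 0.05, 9.54%; smallest adjusted p 0.27). The omeprazole and STW5 arrays are also those already compared, so these values are no independent check of that comparison. Txnip differed from untreated by -4.21 with omeprazole and -0.24 with STW5, Hist1h2bq by -5.03 and 0.13, both with probes well above background on 1 of 4 omeprazole arrays, RT1-T24-4 by -3.65 and 0.35 and Eif3h by -2.48 and 0.01. For Batf3 the values were 0.39 and -1.03, for Clec5a 2.39 and 1.08 and for Hnrnpa2b1 0.64 and -0.37, so in these the omeprazole and STW5 means lay on both sides of the untreated mean or both above it. Clec5a was well above background on 0 of the 4 untreated arrays, so both of its values are taken against levels near the floor of the assay. The untreated arrays lie on slide 1, so each of these contrasts also crosses slides.

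Of 29 called genes with another tested probe, 28 were lower calls. Their 36 other probes had a median difference of -0.04 where the called probes had -1.28; 21 of the 36 were on the same side of 0 and 3 passed in the same direction. One of these belonged to Hmgb1, a chromatin protein that acts as an alarm signal outside cells, whose 3 probes differed by -0.78 ± 0.21, -1.0 ± 0.20 and -0.19 ± 0.24; the others belonged to its pseudogene Hmgb1-ps33 and to a transcript without a symbol. These genes were singled out after their values had been seen. The spike-in RNAs used for scaling, added at fixed amounts, gave 0.25 to 0.53 lower log2 intensity on the omeprazole arrays. With scaling on them the median of all genes moved to 0.45, and 325 lower and 39 higher genes were called. It ended the call of 9 of the 11 higher genes named for their size and of 10 of the 27 named lower genes. The differences of those 11 were then 0.997 to 1.48, larger than without it, with adjusted p in limma from 0.040 to 0.12.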

How the data were processed

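Total RNA of rat whole blood was hybridised to 1-colour (Cy3) Agilent arrays, 1 per animal. Per the file headers, the deposited spot intensity came from Agilent Feature Extraction 10.7.3.1, background-subtracted and detrended within the array and not normalized between arrays; probe coordinates are those of build rn4. In the authors' deposited value table each value is a ratio of the processed signal to the array median, as found by comparison with the scanner files; 12 of its columns follow their own array and 8, all STW5, that of the other dose. Both deposited scales are linear, and log2 was taken here.

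Spots not marked as outliers were averaged (30367 probes), and log2 of each array's 75th percentile over non-control spots was subtracted. No spot was saturated. Probes well above background on at least 4 of 20 arrays were tested (17236), and the brightest stood for a gene. Names came from RefSeq accessions (18005 probes) or symbols (3215); others keep the file's name. limma 3.58.1 in R 4.3.3 (lmFit, eBayes, 5 group means, 15 residual degrees of freedom) gave two-sided p-values for omeprazole minus the mean of both doses, adjusted by Benjamini-Hochberg over 15239 genes (threshold 0.05). The number of arrays limits the precision. BLAST+ 2.17.0 found matches between probes. The fit was tested on simulated data.

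Genes named for their size were called, had a symbol, no match to a brighter probe and groups that did not overlap. They were the 12 largest per direction well above background on at least 3 omeprazole and 6 STW5 arrays, and the 4 largest bounds. List genes were named whatever their match or overlap: the called members (at most 4) of each list, or else that of smallest p. So were the 3 brightest markers per blood cell type and targets of the aryl hydrocarbon receptor. That gave 67 tested results, 40 of them called. The members, lists and this rule were chosen with earlier results of these data known, including that matched probes were lower, so none of this is independent support. Alternatives changed the scaling, background correction, probe filter, samples, weights and block.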

Additional observations from a re-analysis of the deposited data

Results flagged for a closer look

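In each of the groups compared, Dixon's criterion was applied to every named gene, list score and array value, 218 groups of arrays in all. It marked 8 single arrays that stood apart, where chance marks about 1 in 20 groups. Among the 8 STW5 arrays, array 1 of the 2 ml/kg title was lowest for Txnip (-2.19, the next at -0.87) and for Recql5 (-1.71, the next at -1.08), and array 2 of that title was highest for Jkampl (0.49, the next at -1.0). Even that Txnip value was above all 4 omeprazole arrays, of which the highest was -3.81. Array 4 of the 2 ml/kg title was lowest for the score of proton pumps (-0.56, the next at -0.16) and for that of C-type lectin and killer-cell receptors (-0.53, the next at 0.03). Among the 4 omeprazole arrays, array 1 was highest for Nqo1 (0.45, the next at -0.22), and array 3 was highest for the scores of NK and cytotoxic cells (0.28, the next at -0.42) and T cells (0.55, the next at 0.10).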

How the results depend on the processing

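The count of 747 genes became 364 when arrays were scaled on the spike-in probes, 462 with only probes well above background on all 12 arrays, 430 without probes that match a brighter one and 319 with the added limit on matches and on G and C. It was 480 against the arrays titled 0.5 ml/kg and 1374 against those titled 2 ml/kg, 1345 with the array's 75th percentile as a covariate and 2922 with array quality weights; the cause was not tested. Scaling changed the split: 39 of 364 calls were higher with spike-in scaling, 86 of 764 with quantile normalization and 34 of 747 as reported. Of the other alternatives, 1080 of 2922 calls were higher with array quality weights, 251 of 1374 against the 2 ml/kg title, 169 of 1345 with the covariate, 6 of 480 against the 0.5 ml/kg title and 11 of 613 with STW5 as 1 group of the 12 arrays alone. Leaving out 1 array gave 544 to 853 calls. With the replicate block 865 genes were called, 728 of them shared with the 747, and no named call was lost. Same-numbered arrays had correlations of their deviations from -0.357 to 0.589, which does not decide whether the numbers pair the animals. Of 40 named calls, 13 passed under every alternative that tested them: Eif3h, Glul, Helz, Ndufb4l1, Npy4r, Nudt9, Phb1-ps1, Prss3, RT1-CE4, RT1-T24-4, Rpl27a-ps14, Rps2-ps7 and Txnip. Not all alternatives could test them. The added limit on matches and on G and C did not test Glul, Helz, Nudt9, Phb1-ps1, RT1-T24-4 or Txnip. Helz, Nudt9, Prss3 and Txnip were not tested with only probes well above background on all 12 arrays. Reversals were 0.27 for Hmox1 with spike-in scaling, and 0.23 for Rassf3 and 0.11 for Rpsa with the added limit, where another probe stands for the gene. Of 27 named genes not called, 22 passed under some alternative, most often array weights. List medians moved in 42 of 1140 comparisons, 32 of them with spike-in scaling, which shifted the median of all genes to 0.45. Normexp correction, whose offset of 50 shrinks differences of dim probes, gave -2.29 for Hist1h2bq and -1.47 for Txnip. Probes near background limit Txnip, Hist1h2bq, the trypsin genes and other bounds.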

Other observations

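The other higher calls with a symbol overlapped between the groups or were dim on some arrays, so the rule for named genes left them out; those below were picked after their values had been seen. Trafd1, a zinc finger protein that dampens innate immune signalling, was higher with omeprazole by 1.22 ± 0.31 (adjusted p in limma 0.023). Genes of enzymes that act on proteins or metabolites, the deacetylase gene Sirt7 and the dehydrogenase gene D2hgdh, were higher by 0.82 ± 0.19 and 0.90 ± 0.22. Slc39a7, a zinc transporter of the endoplasmic reticulum, was higher by 0.78 ± 0.20, the kinase gene Mapkapk5 by 0.66 ± 0.17 and Arhgap9, a regulator of small GTPases in blood cells, by 0.74 ± 0.20. Anapc7, a subunit of the complex that ends mitosis, was higher by 0.95 ± 0.24 without overlap and was well above background on 5 of 8 STW5 arrays. Rai1, a nuclear protein, was higher by 0.98 ± 0.24 without overlap and well above background on 3 of 4 omeprazole arrays and 1 of 8 STW5 arrays.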
